A study of Homo sapiens with 6 samples.

Results

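Cytosolic ribosomal protein genes encode the proteins of the large and the small ribosomal subunit, and 86 of the 60675 genes in the count table met the naming rule used here. The rule took every symbol of the RPL or RPS series, with RPLP0, RPLP1, RPLP2, RPSA and FAU, and left out ribosomal S6 kinases, RPS4Y genes and symbols of pseudogenes. It gave 52 genes of the large subunit and 34 of the small subunit, all of which were found by identifier in the GENCODE release 29 annotation on GRCh38. They were read in polyA RNA of SUM159 cells, an established human line of triple-negative breast cancer, in 3 libraries labelled DAPK3 KO, from 1 knockout line numbered 3, and 3 labelled control with the genotype DAPK3 WT. DAPK3 is a death-associated protein kinase that phosphorylates serine and threonine, and the question of the design was which transcripts differ after its knockout. Both groups grew in Ham's F-12 medium with serum, HEPES, insulin and hydrocortisone. Whether the libraries of a group are separate cultures is not labelled, and p-values then describe the spread among these libraries, which may be technical. With 1 knockout line, an effect of the knockout and a property of that line cannot be told apart.

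Each ribosome carries 1 copy of nearly every ribosomal protein, and cells control the set largely together. Most of these messenger RNAs begin with a cytosine and a run of pyrimidines, the 5′ terminal oligopyrimidine (TOP) sequence, through which mTOR and the RNA-binding protein LARP1 set how well they are translated and how long they last. Transcription of the genes depends in part on MYC, which is also known to raise ribosome biogenesis in tumours. Several members have a close paralog that can take the place of the standard protein, and some, such as RPL5 and RPL11, bind and inhibit MDM2 when ribosome assembly fails.

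The start of 9 genes is shown here because it carries the TOP sequence that most of the group shares and that some paralogs lack. Each line gives 15 bases before and 15 from the listed start of the RefSeq gene on GRCh38.p14, read 5′ to 3′ on the gene's strand, and capitals mark an unbroken run of C and T that opens with C at that start and holds at least 5 bases.
RPS6, chr9:19380222-19380251, minus strand: aagcggaagttggccCTCTTTTCCgtggcg
RPS18, chr6:33272060-33272089, plus strand: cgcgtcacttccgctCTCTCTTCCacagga
RPL26, chr17:8383179-8383208, minus strand: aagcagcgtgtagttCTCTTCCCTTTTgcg
RPS25, chr11:119018329-119018358, minus strand: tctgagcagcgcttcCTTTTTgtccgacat
RPS27, chr1:153990747-153990776, plus strand: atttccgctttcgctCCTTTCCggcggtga
RPS27L, chr15:63157463-63157492, minus strand: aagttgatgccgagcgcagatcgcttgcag
RPL26L1, chr5:172958714-172958743, plus strand: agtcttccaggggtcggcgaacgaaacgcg
RPL22, chr1:6199581-6199610, minus strand: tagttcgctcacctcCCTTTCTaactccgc
RPL22L1, chr3:170870181-170870210, minus strand: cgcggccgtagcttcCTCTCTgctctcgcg

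RPS6, RPS18, RPL26 and RPS25 all open with such a run, although without both R2 libraries RPS25 was called lower in KO and the other three higher. Among the paralogs, RPL22L1 has a run like RPL22, while the listed starts of RPS27L and RPL26L1 have none. Of the 68 members found in the RefSeq promoter table, 48 (70.6%) had a run at the listed start, against 5.14% of all 27305 genes in that table and 6.24% of its 15843 protein-coding genes. Among the members without the 7 paralogs the count was 47 of 63 (74.6%). The runs are a description of the listed start, which need not be the start used in SUM159 cells.

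In each group, 1 library had a DAPK3 RNA level that did not match its label. In the KO libraries numbered R1, R2 and R3, DAPK3 stood at 13.1, 27.2 and 11.2 CPM, against 26.2, 10.5 and 26.1 CPM in the control libraries so numbered (CPM is the count scaled to a common library total). These values rest on 219 to 536 counts per library. KO R2 thus had as much DAPK3 RNA as control R1 and R3, and control R2 as little as KO R1 and R3. The first principal component of all tested genes, with the ribosomal protein genes included, held 74.7% of the variance. It placed KO R1, KO R3 and control R2 between −56.6 and −56.2, and KO R2, control R1 and control R3 between 52.9 and 59.4. Since knockout alleles are often still transcribed, RNA alone does not give a genotype. No library was moved between groups. Every comparison is of the labels as given, and results are also stated without both R2 libraries, which leaves 2 libraries per label. Those libraries were chosen for their DAPK3 RNA and their place among the others, so p-values without them are not independent evidence for the labels.

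Library totals ran from 16312184 to 22970823 expected counts. Of 4 markers for the line, VIM, encoding vimentin, ran from 1425 to 2755 CPM in KO and from 1898 to 3584 CPM in control libraries. CD44 ran from 304 to 421 CPM in KO and from 433 to 526 CPM in control libraries. For EGFR the ranges were 468 to 518 and 302 to 395 CPM, and for AXL 123 to 447 and 159 to 448 CPM. Without both R2 libraries EGFR was called higher (edgeR adjusted p = 0.00792), VIM and AXL lower (adjusted p = 0.00877 and 0.00537), and CD44 was not called. Of a luminal list, PGR was at 0 in all 6 libraries, ESR1 was at most 0.478 CPM and EPCAM at most 0.0489 CPM. The other 2 genes of the luminal list were not near 0. ERBB2 stood at 52.2, 59.4 and 55.1 CPM in KO, against 95.3, 67.9 and 97.7 CPM in control libraries, and was called lower without both R2 libraries (log2 fold change −0.86, SE 0.12, edgeR adjusted p = 0.00292). GATA3 stood at 4.46, 10.4 and 4.56 CPM in KO, against 5.91, 3.68 and 4.23 CPM in control libraries. The summed level of 7 blood cell markers was 12.6 to 16.5 CPM in KO and 11.8 to 15.1 CPM in control libraries, most of it CD68. PTPRC in that list stood at 0.106, 3.28 and 0 CPM in KO, against 2.98, 0.0478 and 2.92 CPM in control libraries, and so followed DAPK3 RNA, with a call lower without both R2 libraries (edgeR adjusted p = 0.00213). The part of these markers in the results was not tested. The 3 endothelial markers summed to at most 1.81 CPM and the 5 neural and liver markers to at most 1.16 CPM in any library.

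The group took up a large and narrow band of the RNA. Of the 86 genes, 82 had enough counts for testing, and the other 4 were the paralogs RPL3L, RPL10L and RPL39L and RPS10L, which the annotation lists as a processed pseudogene. RPL3L, whose product takes the place of RPL3 in striated muscle, had at most 5 expected counts in any library. RPL10L, a retrogene known from the testis, had 1 count in KO R2 and 0 elsewhere, where a count of 0 allows up to 3 counts, or 0.130 to 0.159 CPM in those 5 libraries. Per kilobase of coding length, the median level of the 78 tested genes that are not paralogs was 1551 CPM per kb, and all but RPL41 lay between 524 and 4339 CPM per kb. RPL41, which encodes a very short basic peptide, stood highest at 16765 CPM per kb. Its coding length is 78 bases, and reads of untranslated parts count toward its level, which raises a value per coding base most in short genes. RPS18 and RPL37 came next with 4339 and 3795 CPM per kb. The order depends on the length used: per kilobase of the annotated principal transcript, RPS18 was first at 3249 and RPL41 second at 2788 CPM per kb, and RPL37, whose listed transcript has 7686 bases, ranked 75 of 85 at 145 CPM per kb. The 4 tested paralogs were the lowest of the tested genes, with RPL26L1 at 69.4, RPS27L at 103, RPL22L1 at 195 and RPL7L1 at 419 CPM per kb. The median was 1469 CPM per kb for 46 large subunit genes and 1671 for 32 small subunit genes, both without paralogs. RSEM divides reads of near-identical copies by estimate, so levels of genes with many pseudogenes are uncertain to that extent. Pseudogenes held 44.0% of the counts of RPL23A and its pseudogenes together, 10.7% for RPS2, 6.31% for RPS28 and at most 1.88% for each of the other members.

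**Figure D1:**
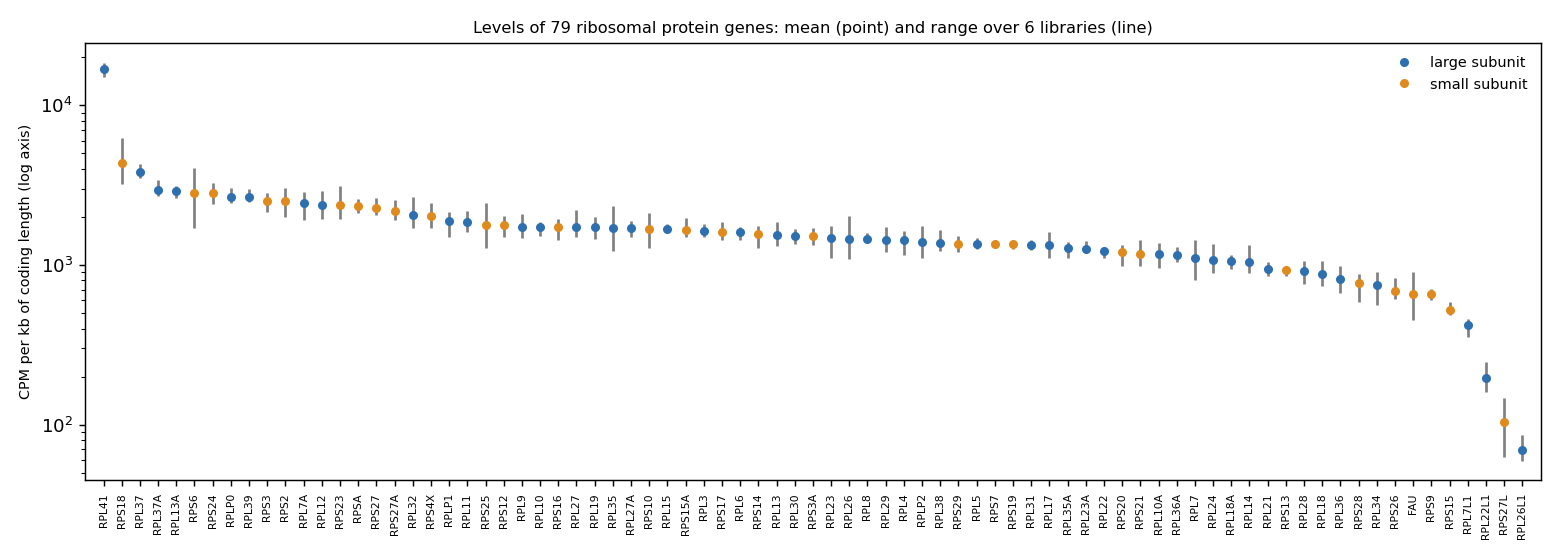
Level of 79 of the 82 tested genes on a log axis, in CPM per kb of coding length, with points for the mean and lines for the range over 6 libraries, blue for the large and orange for the small subunit. RPL41 stands apart at 16765, most genes lie between 524 and 4339, and the paralogs RPL7L1, RPL22L1, RPS27L and RPL26L1 fall to 419 or less.

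Over the 6 libraries the members varied less than most genes, with a few exceptions. The median SD of log2 CPM was 0.17 over the 82 tested members, beside 0.30 over 14613 tested genes and 0.21 over the 763 tested genes with a mean of at least 229.7 CPM, the 5th percentile of the tested members' means. RPS7 and RPL15 were among the 3 genes with the smallest spread, at 0.06 and 0.07. RPS7, a small subunit protein, stood at 776, 762 and 751 CPM in KO against 833, 783 and 829 CPM in control libraries. RPS6, RPS27L and RPS25, all of the small subunit, had the largest spread, at 0.61, 0.58 and 0.40.

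The share of all expected counts held by the 86 genes was 7.68%, 6.46% and 7.29% in KO R1, R2 and R3, against 6.34%, 7.20% and 6.52% in control R1, R2 and R3. The labelled groups overlapped, with 7.14% ± 0.624 in KO and 6.69% ± 0.458 in control (SD, n = 3 each), a difference of 0.458 percentage points. The 3 highest shares belonged to KO R1, KO R3 and control R2, the libraries with the lower DAPK3 RNA. Without both R2 libraries the difference was 1.06 percentage points, and without KO R1 alone it was 0.189. The large subunit took 4.38%, 3.86% and 4.23% in KO, against 3.78%, 4.19% and 3.84% in control libraries. The small subunit took 3.30%, 2.61% and 3.06% in KO, against 2.56%, 3.02% and 2.68% in control libraries. Both subunits ordered the libraries alike in that KO R1, KO R3 and control R2 stood above the rest. RPS6 alone took 0.307%, 0.132% and 0.287% in KO, against 0.127%, 0.280% and 0.141% in control libraries, and the difference between the labelled groups was 0.399 percentage points when RPS6 was left out. Mitochondrial transcripts, whose share can follow RNA quality, took 5.89%, 4.84% and 4.52% in KO, against 4.66%, 5.08% and 7.35% in control libraries, an order unlike that of the ribosomal protein genes, and its part in their shares was not tested.

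**Figure D2:**
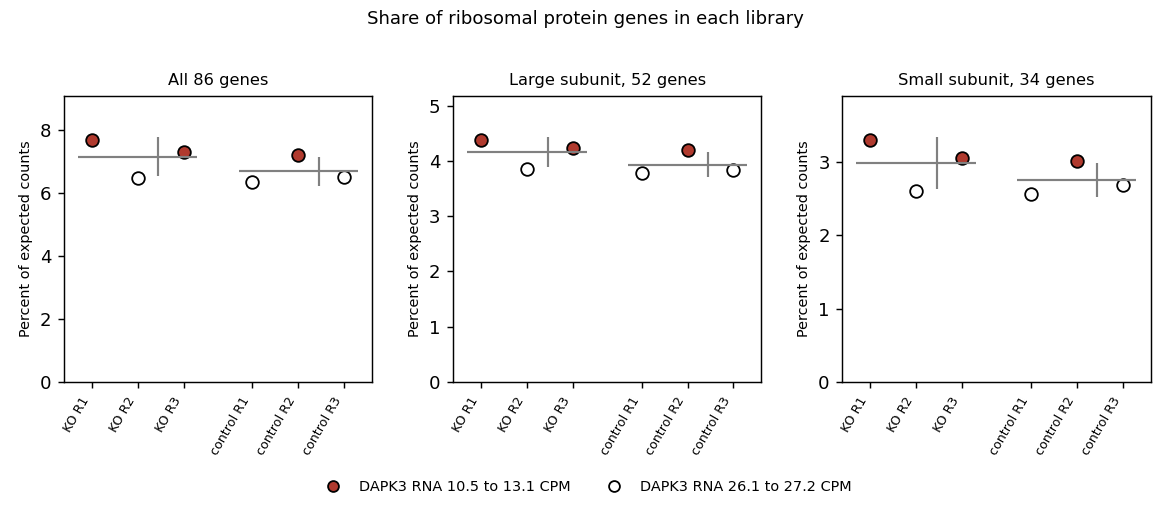
Percent of a library's expected counts in all 86 genes, in the 52 large subunit genes and in the 34 small subunit genes, one point per library, with KO left of control, grey lines for the mean and SD of each labelled group (n = 3) and filled points for libraries with 10.5 to 13.1 CPM of DAPK3. In each panel the 3 filled points, KO R1, KO R3 and control R2, lie above the 3 open ones, so that each labelled group spans both levels.

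Between the labelled groups, small differences were seen in both directions, and no member passed the test. Of 82 tested members 0 were called at an adjusted p under 0.05 by edgeR's quasi-likelihood test, as were 0 of 14613 genes (0.0%), where the lowest adjusted p was 0.635. With unadjusted p-values under 0.05 stood 1 member higher (RPS2) and 1 lower (RPL7), beside 7.66% of all genes, 3.49% higher and 4.17% lower. DESeq2 called 114 genes, 45 higher and 69 lower, with 0 members among them, and limma-voom called 0 genes. The median log2 fold change of the tested members was 0.07, beside −0.000341 for all genes, with 58 values above and 24 below 0 and a range of −0.42 to 0.40. It was 0.07 for the large and 0.07 for the small subunit.

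RPS2, at the entry of the messenger RNA channel of the small subunit (chromosome 16, 1962052 to 1964860), stood at 2662, 2265 and 2492 CPM in KO, against 1754, 2173 and 1954 CPM in control libraries. All 3 KO libraries were above all 3 control libraries, and their log2 fold change was 0.34 with SE 0.12 (edgeR adjusted p = 0.635). RPL7, a large subunit protein (chromosome 8, 73290267 to 73295789), stood at 599, 818 and 712 CPM in KO, against 1073, 858 and 890.5 CPM in control libraries. Its groups did not overlap either, with KO lower, at a log2 fold change of −0.41 with SE 0.15 (edgeR adjusted p = 0.635). In all, 7 members (8.54%) were higher in every KO library than in any control library, beside 6.97% of all tested genes, and 3 (3.66%) were lower, beside 6.86%. Among the 7 were RPS2, RPL13A, RPLP0, RPLP1 and RPL8, and the 3 were RPL7, RPL23 and RPS7. The next smallest p-values belonged to RPL12, RPLP0, RPL28 and RPL13A among members with a positive fold change (log2 fold changes 0.29, 0.19, 0.25 and 0.18) and to RPL23, RPS20, RPS25 and RPL39 among those with a negative one (−0.31, −0.21, −0.42 and −0.13). None of these 8 had an adjusted p under 0.656.

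RPL13A is a large subunit protein that, in human myeloid cells, is known to leave the ribosome after phosphorylation by a DAPK1 and DAPK3 kinase relay and to silence inflammatory messenger RNAs as part of the GAIT complex. Its gene (chromosome 19, 49487554 to 49492308) stood at 1920.3, 1918 and 1814 CPM in KO, against 1598, 1675 and 1723 CPM in control libraries. The groups did not overlap, with a log2 fold change of 0.18 and SE 0.09 (edgeR adjusted p = 0.673). Unlike RPS6, RPL13A did not follow DAPK3 RNA across the labels, since KO R2 stood with the other KO libraries and control R2 with the other control libraries. Without both R2 libraries the log2 fold change was 0.15 (SE 0.12, adjusted p = 0.385). Of the 4 GAIT genes tested, RPL13A, EPRS, SYNCRIP and GAPDH, 0 were called in either comparison. DAPK1 was at most 0.101 CPM in any library. Phosphorylation and the place of the protein were not measured.

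The ribosomal stalk, which recruits elongation factors, is built on RPLP0 with RPLP1 and RPLP2. RPLP0 stood at 2879, 2708 and 2583 CPM in KO, against 2361, 2330.2 and 2480.1 CPM in control libraries. RPLP1 stood at 746, 667 and 667 CPM in KO, against 518, 628 and 656 CPM in control libraries. RPLP2 overlapped, at 614, 429 and 503 CPM in KO against 385, 485 and 481 CPM in control libraries. Thus RPLP0 and RPLP1 divided by label and RPLP2 did not, while none of the 3 passed the test (log2 fold changes 0.19, 0.21 and 0.19, edgeR adjusted p = 0.668, 0.712 and 0.773).

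**Figure D3:**
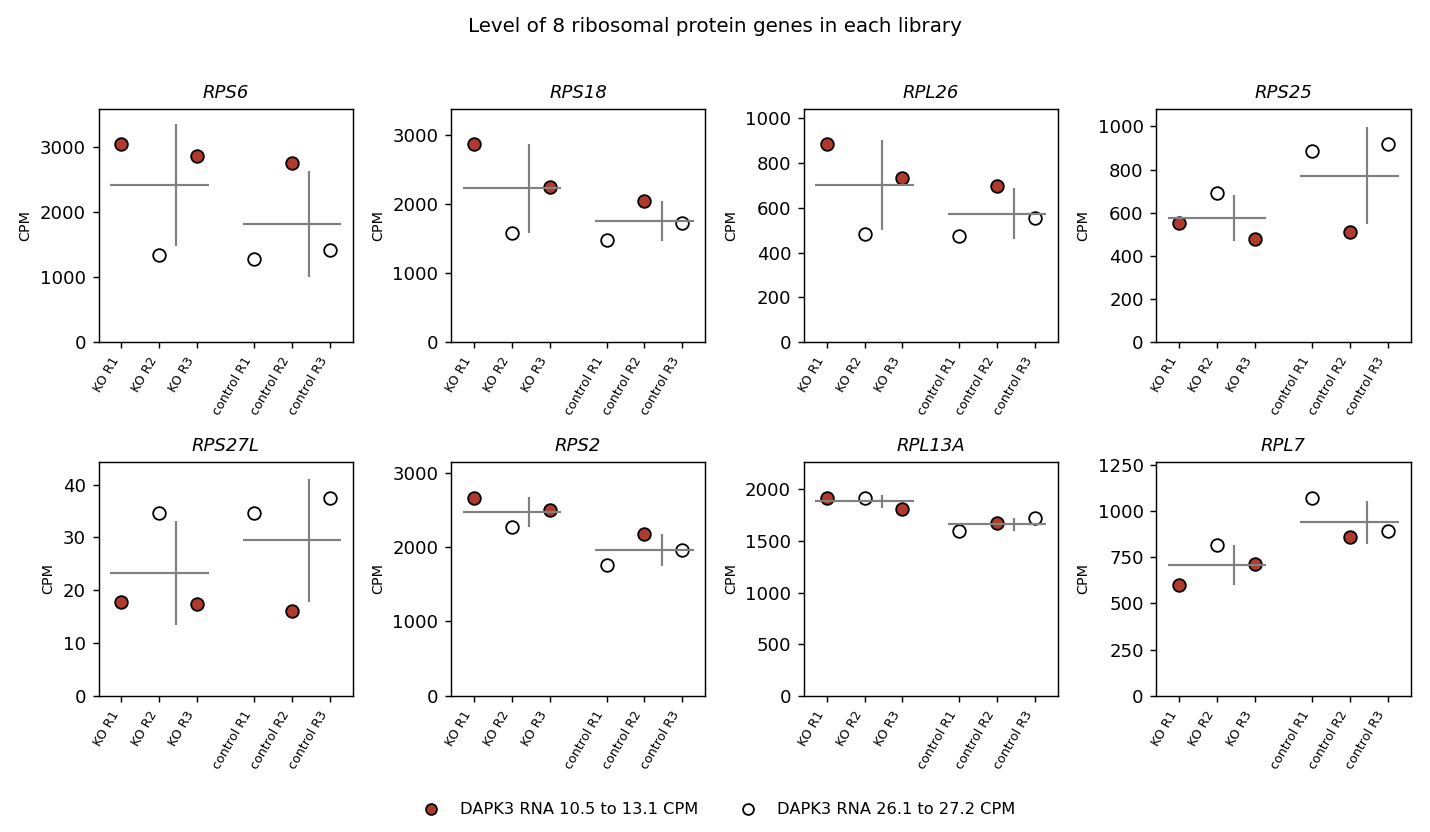
CPM of 8 members in each library, with KO left of control, grey lines for the mean and SD of each labelled group (n = 3) and filled points for libraries with 10.5 to 13.1 CPM of DAPK3. RPS6, RPS18 and RPL26 are higher and RPS25 and RPS27L lower in the filled libraries whatever their label, while RPS2 and RPL13A are higher and RPL7 lower in the 3 KO libraries.

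Several members instead followed DAPK3 RNA. RPS6, the small subunit protein phosphorylated by S6 kinases downstream of mTOR (chromosome 9, 19375715 to 19380254), stood at 3040.1, 1333 and 2859 CPM in KO, against 1284, 2756 and 1424 CPM in control libraries. KO R1, KO R3 and control R2 were thus about alike and far above the rest, and the labelled groups overlapped (log2 fold change 0.40, SE 0.40, edgeR adjusted p = 0.803). RPS25, a small subunit protein needed by some viral and cellular internal ribosome entry sites (chromosome 11, 119015712 to 119018691), ran the other way, at 554, 693 and 480.5 CPM in KO and 885, 513 and 918 CPM in control libraries. The ratio of RPS6 to RPS25, 2 genes of the same subunit, was 5.48, 1.93 and 5.95 in KO against 1.45, 5.37 and 1.55 in control libraries. Both genes were named for their large spread and ran opposite ways, so their ratio was bound to vary and does not speak for other pairs. RPS27L, a paralog of RPS27 (chromosome 15, 63125872 to 63158021), stood at 17.7, 34.6 and 17.4 CPM in KO, against 34.6, 16.1 and 37.5 CPM in control libraries.

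RPS18, of the small subunit head (chromosome 6, 33272010 to 33276510), stood at 2865, 1578 and 2251 CPM in KO, against 1484, 2051 and 1721 CPM in control libraries. RPL26, a large subunit protein near the exit of the peptide tunnel (chromosome 17, 8377516 to 8383250), stood at 882, 484 and 734 CPM in KO, against 474, 695 and 552 CPM in control libraries. In each of these genes KO R1 was highest, and KO R3 and control R2 followed. Counted over the group, 31 of 82 members (37.8%) were higher in each of KO R1, KO R3 and control R2 than in any of KO R2, control R1 and control R3, beside 21.3% of all tested genes. In the other direction there were 7 members (8.54%), RPL4, RPL7L1, RPL30, RPS19, RPS20, RPS25 and RPS27L, beside 22.2% of all tested genes. The large subunit gave 19 higher and 3 lower, and the small subunit 12 higher and 4 lower. DAPK3 RNA is a measured value and not a label, so these counts carry no test.

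Without both R2 libraries, ribosomal protein genes differed between the labels in both directions, more of them higher. edgeR called 14 of the 82 members, 11 higher (13.4%) and 3 lower (3.66%) in KO, beside 12.2% of all 14846 genes higher and 15.2% lower. The share called higher was therefore close to that of all genes, and the share called lower was under it. The median log2 fold change of the tested members was 0.13, beside −0.02 for all genes, with 61 values above and 21 below 0 and a range of −1.06 to 1.11. The large subunit had 6 called higher and 1 lower of 49 (median 0.15), and the small subunit had 5 higher and 2 lower of 33 (median 0.09). With control R1 also left out 3 members were called, and with KO R1 or control R3 left out 6 and 9, in fits where the lone library is assumed to vary like the other pair.

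**Figure D4:**
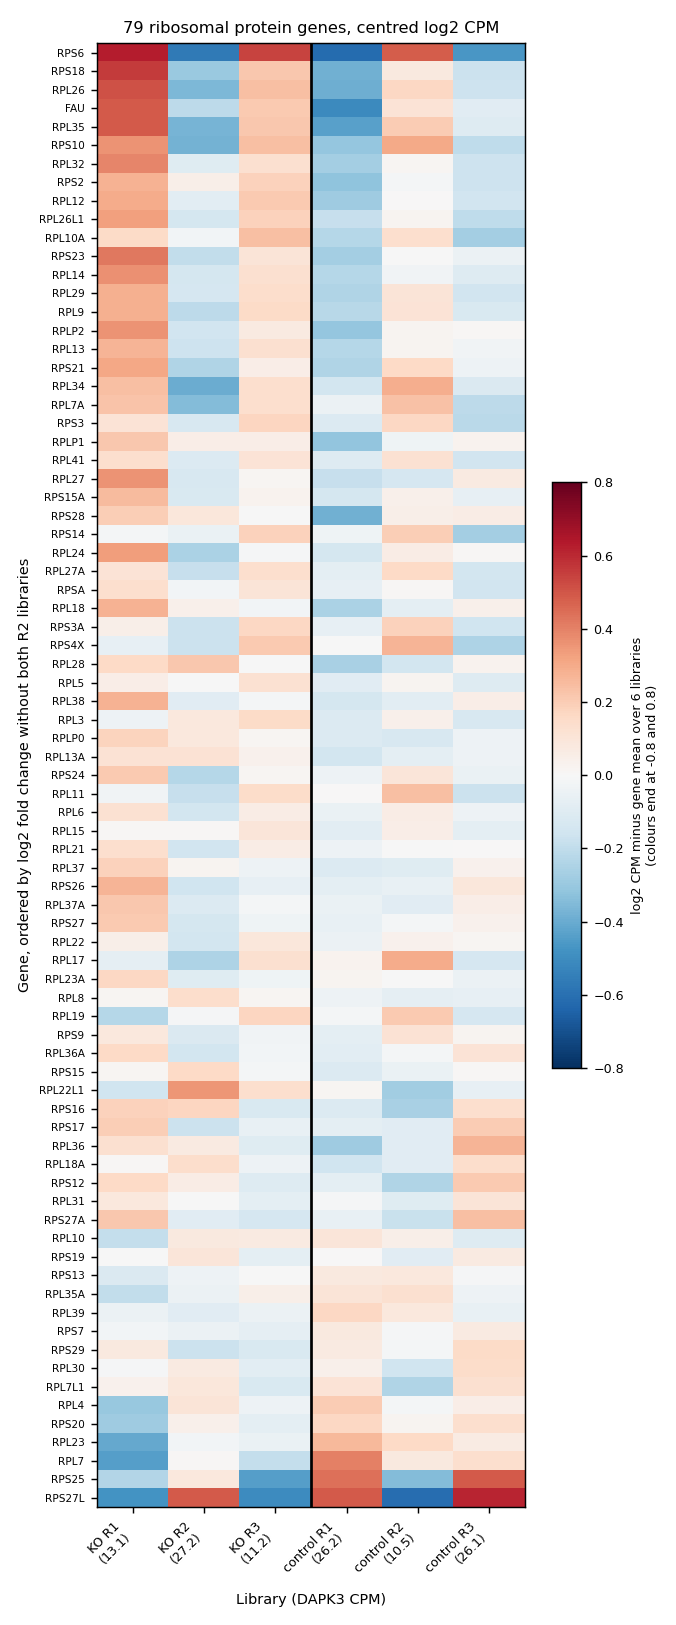
Log2 CPM of 79 of the 82 tested genes, each minus its mean over the 6 libraries, with red above and blue below the mean, KO libraries left of the black line, control libraries right of it and DAPK3 CPM under each library. Genes run by their log2 fold change without both R2 libraries, from RPS6 (1.11) to RPS27L (−1.06), and in RPS6, RPS25 and RPS27L KO R2 is on the side of control R1 and R3, and control R2 on that of KO R1 and R3, which RPL7 and RPL23 near the bottom do not show.

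Among the small subunit genes called higher, RPS6 had the largest log2 fold change, 1.11 (SE 0.13, edgeR adjusted p = 0.00156). RPS18 had 0.66 (SE 0.16, adjusted p = 0.0222), and RPS10, also of the subunit head, had 0.54 (SE 0.12, adjusted p = 0.017). RPS10 stood at 1053 CPM in KO R1 and 971 CPM in KO R3, against 663 and 714 CPM in control R1 and control R3, while in the libraries left out KO R2 stood at 632 and control R2 at 1013 CPM. FAU, which encodes a ubiquitin-like protein fused to ribosomal protein S30, had a log2 fold change of 0.63 with SE 0.17 (adjusted p = 0.036), with 364 CPM in KO R1 and 299.8 CPM in KO R3, against 182 and 243 CPM in control R1 and control R3. RPS2 had 0.46 (SE 0.13, adjusted p = 0.0355).

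Of the large subunit, RPL26 had a log2 fold change of 0.64 with SE 0.14 (edgeR adjusted p = 0.0181) and RPL35, near the exit of the peptide tunnel, 0.60 (SE 0.16, adjusted p = 0.032). RPL35 stood at 873 CPM in KO R1 and 719.7 CPM in KO R3, against 458 and 578 CPM in control R1 and control R3, and at 479 CPM in KO R2 and 716 CPM in control R2. RPL32 rose by 0.47, RPL12, at the base of the stalk, by 0.46, RPL10A, of the mobile L1 stalk, by 0.43 and RPL29 by 0.39 on the log2 scale, with adjusted p-values from 0.0312 to 0.0484. RPL29 was called in 7 of 15 alternative settings, the fewest of the 14. RPS6, RPS25 and RPS27L were called in all 15.

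The members called lower were RPS27L, RPS25 and RPL7. RPS27L fell by 1.06 on the log2 scale (SE 0.14, edgeR adjusted p = 0.00292), RPS25 by 0.82 (SE 0.12, adjusted p = 0.00441) and RPL7 by 0.59 (SE 0.15, adjusted p = 0.0248). In RPS27L and RPS25 the libraries left out went against their labels. In RPL7 they lay between the others, with KO R2 at 818 and control R2 at 858 CPM.

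The paralogs did not move as a set. RPS27L made up 2.66%, 6.62% and 3.08% of the level of RPS27 in KO, against 6.25%, 2.83% and 6.35% in control libraries, while RPS27 itself stood at 666, 523 and 564 CPM in KO against 554, 569.9 and 591 CPM in control libraries. RPL26L1, a close copy of RPL26, stood at 37.8, 27.3 and 34.2 CPM in KO, against 26.5, 30.5 and 26.1 CPM in control libraries. It had the same sign as RPL26, with a log2 fold change of 0.44 without both R2 libraries (SE 0.14, edgeR adjusted p = 0.0522), and amounted to 4.29% to 5.63% of RPL26 in KO and 4.40% to 5.58% in control libraries. RPL22L1, known in mice to replace RPL22 when that gene is lost, stood at 63.7, 90.7 and 78.0 CPM in KO against 71.9, 58.7 and 67.8 CPM in control libraries. RPL22 stood at 487, 426 and 502 CPM in KO against 457, 483 and 476 CPM in control libraries, so KO R2 had the highest RPL22L1 and the lowest RPL22 of the 6. Neither gene was called in either comparison. RPL7L1, a nucleolar relative of RPL7, amounted to 54.7%, 41.7% and 41.3% of RPL7 in KO against 32.3%, 31.6% and 39.3% in control libraries. Its own level overlapped, at 328, 341 and 294 CPM in KO and 346, 271 and 350.1 CPM in control libraries. RPL3 and RPL10, the partners of the paralogs near 0, had log2 fold changes of 0.13 and −0.03 between the labels (adjusted p = 0.765 and 0.959).

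RPL5 and RPL11, which with 5S ribosomal RNA bind MDM2, were not called in either comparison. RPL5 stood at 1259, 1212 and 1317 CPM in KO, against 1136, 1229 and 1128 CPM in control libraries. RPL11 stood at 967, 869 and 1092 CPM in KO, against 988, 1166 and 875 CPM in control libraries. MDM2 itself was called higher without both R2 libraries, with a log2 fold change of 0.46 and SE 0.12 (edgeR adjusted p = 0.0278). It stood at 68.45, 57.2 and 69.2 CPM in KO, against 49.15, 65.15 and 50.02 CPM in control libraries. The labelled groups thus overlapped (log2 fold change 0.25, edgeR adjusted p = 0.717), and MDM2 followed DAPK3 RNA.

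Most called members lay among genes whose fold changes had the same sign. For each tested member, the median log2 fold change without both R2 libraries was taken over the tested genes within 2 Mb, with ribosomal protein genes left out. For all genes, ribosomal protein genes were kept among the neighbours, and only genes with 5 or more neighbours entered. The sign of the median matched that of the gene in 13 of the 14 called members (92.9%), in 53 of all 82 tested members (64.6%) and in 8985 of 14490 tested genes (62.0%). The last share covers genes called or not. The share among all called genes, which would be the like one for the 14, was not computed. RPS18 lay among 98 tested genes with a median of 0.51, of which 42 were called higher and 3 lower. RPS10 lay among 56 with a median of 0.48, RPL26 among 79 with 0.52 and RPS2 among 144 with 0.41. On the lower side, RPS25 lay among 45 with a median of −0.41 and RPS27L among 29 with −0.45. RPS6 was the 1 called member whose neighbours had the other sign, with a median of −0.01 over 5 genes, and within 5 Mb the median was 0.45 over 13 genes. Across the 82 members Pearson's r between a gene and its neighbours' median was 0.58 and Spearman's rho 0.60, and across 14490 genes 0.25 and 0.32. They are given as a description because nearby genes share their windows and all values share the same 4 libraries. The sets are also unlike, since members have higher counts and vary less than most genes (median SD of log2 CPM 0.17 against 0.30). No correlation was computed over genes of like level, so these values do not show a closer link to position in the members. RPS18, RPS10 and RPL10A lie within a few megabases on chromosome 6, and RPL35 and RPL12 likewise on chromosome 9, so their windows hold some of the same genes. The part of chromosomal position in these differences was not tested.

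**Figure D5:**
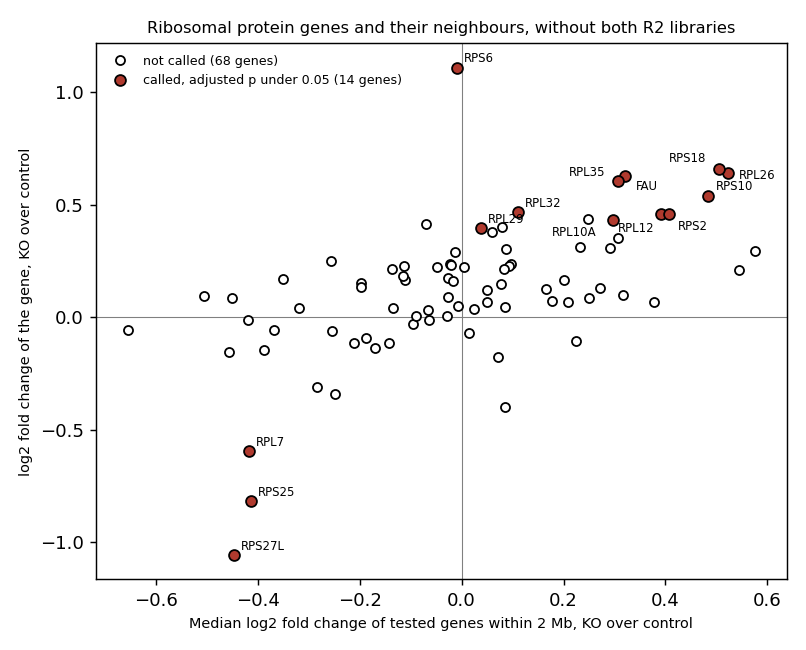
Log2 fold change of each tested member without both R2 libraries, KO over control, against the median log2 fold change of the tested genes within 2 Mb, with filled points for the 14 called members. RPS18, RPL26 and RPS10 lie at the upper right and RPL7, RPS25 and RPS27L at the lower left, while RPS6 stands at 1.11 over a neighbour median of −0.01 from 5 genes, which is 0.45 over 13 genes within 5 Mb.

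Genes around the ribosome gave a wider view. Of 56 tested ribosome biogenesis genes, 21 were called higher and 0 lower without both R2 libraries, beside 12.2% of all genes higher and 15.2% lower, with a median log2 fold change of 0.27 (0.22 in the labelled comparison, where 0 were called). RRP12, a small subunit export factor, stood at 288, 235 and 273 CPM in KO, against 146, 218 and 170.0 CPM in control libraries. DKC1, the pseudouridine synthase of box H/ACA particles, stood at 436, 435 and 496 CPM in KO, against 295, 399.9 and 310.4 CPM in control libraries. Without both R2 libraries, log2 fold changes were 0.81 (SE 0.13, edgeR adjusted p = 0.00501) for RRP12 and 0.61 (SE 0.13, adjusted p = 0.013) for DKC1. In both genes every KO library was above every control library. Other called biogenesis genes followed DAPK3 RNA instead, and how the 21 divide was not counted. DDX10 stood at 128, 71.7 and 143 CPM in KO, against 60.6, 125 and 53.3 CPM in control libraries. NOP14 stood at 206, 131 and 208 CPM in KO, against 119, 186 and 130 CPM in control libraries. Of 77 mitochondrial ribosomal protein genes, a separate set with a ribosome of its own, 19 were called higher and 2 lower (median 0.26). Translation initiation factors gave 4 higher and 4 lower of 37, both under the shares of all genes. Other genes with TOP messenger RNAs, such as EEF1A1 and EEF2, gave 0 higher and 1 lower of 17 (median −0.07), the lower one being VIM.

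MYC, a transcription factor that acts on ribosomal protein genes, stood at 926, 901 and 922 CPM in KO, against 575, 759 and 416 CPM in control libraries. All KO libraries were above all control libraries. MYC's log2 fold change was 0.65 with SE 0.21 (edgeR adjusted p = 0.635), and 0.89 with SE 0.16 without both R2 libraries (adjusted p = 0.00874). In the list of 16 regulators of ribosomal protein genes, MYC was the 1 gene called higher and GABPA, an ETS factor, the 1 called lower (−0.50, SE 0.15, adjusted p = 0.0457). MTOR, LARP1 and RPS6KB1 had log2 fold changes of 0.12, 0.12 and 0.03 there and were not called. MYC RNA divided the libraries by label with KO higher, as did 7 members (8.54%) and 6.97% of all tested genes. RPS6, RPS25 and RPS27L divided them by DAPK3 RNA. The part of MYC in the levels of the members was not tested.

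Some measures that the naming rule did not use were set beside the fold changes. Across the 82 tested members, Pearson's r of the log2 fold change without both R2 libraries was 0.30 with mean CPM, 0.17 with transcript GC content and 0.09 with coding length, given as a description across genes. Over all tested genes with these annotations, r was 0.11 with GC content (12429 genes) and −0.06 with coding length (12435 genes). The value for GC content was thus not far from that of genes in general. For mean CPM the value over all genes was not computed. The sequence CCGGAAGT, a core that ETS factors such as GABPA can bind, was searched on both strands in the 300 bases around the listed start. It was found in 11 of 68 members (16.2%) in 4.95% of all genes in the promoter table and in 6.97% of its protein-coding genes. It was found in 5 of 12 called members (41.7%) and 6 of 55 tested members that were not called (10.9%). Members absent from the promoter table are not in these counts, and the same shares over all called and uncalled genes were not computed. A TOP run was found in 9 of the 12 (75.0%) and 39 of the 55 (70.9%). These matches are a description of the letters and not of binding.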

How the data were processed

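PolyA RNA of 3 libraries labelled DAPK3 KO and 3 labelled control was sequenced on an Illumina instrument, per the labels' protocols. The deposited values are expected counts from RSEM, estimated per gene by the authors, not normalized and not always whole; 9.42% to 10.6% of values per library were not whole. RSEM, Bowtie2, edgeR and GRCh38 are named per the submitters' processing notes; their versions, the annotation release and strandedness were not given in the sources used here, so antisense and overlapping genes cannot be told apart.

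Counts were rounded. edgeR 4.0.16 (R 4.3.3) was used with filterByExpr, TMM factors (0.991 to 1.015), the quasi-likelihood test and Benjamini-Hochberg adjustment over all tested genes, called at an adjusted p under 0.05. Fold changes are KO over control on the log2 scale; each SE was derived from the F statistic. CPM are rounded counts divided by the library total times its TMM factor, on the usual CPM scale. Coding length is that of the annotated principal transcript. Members, lists and the choice of libraries to leave out were made with earlier results of these data known. Named genes were the paralogs and partners, RPL13A, RPL5, RPL11, the stalk, called members, the 5 smallest p per direction, and the 3 extremes of level and spread. Genes of other lists, the MYC values and members named in counts of non-overlap were chosen after their values were seen. Alternatives were scaling by RLE, upper quartile or library size, TMM without the members, other filters, DESeq2 1.42.0, limma-voom (limma 3.58.1), a replicate block, each library left out, a principal component as covariate and an adjusted p under 0.1. Some genes are not reported here by name and were not drawn in the plots of single genes. The edgeR step was tested on simulated data. Intervals beyond the SE were not computed, and a count of 0 covers counting error only.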

Additional observations from a re-analysis of the deposited data

How the results depend on the processing

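In the labelled comparison 0 members were called under every alternative run except without both R2 libraries, which gave 14, and the median log2 fold change stayed above 0, between 0.01 (without KO R1) and 0.13. RPS27L changed sign with the first principal component as a covariate, to 0.056 (−0.34 without it); the cause was not tested. The difference in share of counts was 0.458 percentage points, 1.06 without both R2 libraries and 0.189 to 0.80 with each library left out. Without both R2 libraries, 13 to 17 of the 82 members were called under the other scalings, filters and tools, and 3 to 13 with each library left out. All genes called there numbered 4055, against 2543 without control R1. Deviations from the group mean correlated at −0.65, −0.85 and −0.70 between libraries of the same number, over 6 libraries. Because each R2 library lay opposite to its own group, these values cannot show whether replicate numbers pair the samples. The replicate block gave 0 members in the labelled comparison and 3 without both R2 libraries. A crossed replicate block, chosen after seeing the data (correlation −0.31 for the numbered pairs), gave 34 members and 6149 genes. Adding counts of pseudogenes and readthrough genes, also chosen after seeing the data, left 14 called. RPL26L1 passed the threshold with RLE and library-size scaling. Paralogs with at most 5 counts could not be compared at this depth.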
